A study of Takifugu obscurus and Periophthalmus magnuspinnatus and Gallus gallus with 6 samples.

Results

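The water balance genes described here are 6 of the 38390 gene rows in the fugu and chicken count matrices, 4 of 21383 rows in fugu and 2 of 17007 in chicken. The rows were found by their symbols. In fugu these are aqp1a.1 (ENSTRUG00000013591), mlc1 (ENSTRUG00000004497) and a pair of rows that both carry the symbol AQP4 (ENSTRUG00000032168 and ENSTRUG00000008636). In chicken they are AQP1 (ENSGALG00010027337) and AQP4 (ENSGALG00010005544). Chicken MLC1 (ENSGALG00010008055) was not in the choice and is given beside them as a comparison.

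Aquaporins are membrane channels that let water follow osmotic gradients. In mammals AQP4 is the water channel of astrocytes and ependymal cells and is concentrated where astrocyte endfeet meet blood vessels and the pial surface, whereas AQP1 is known from choroid plexus, red blood cells and endothelium outside the central nervous system. MLC1 is a glial membrane protein that works with the adhesion protein HEPACAM and the chloride channel CLCN2 in the volume control of astrocytes, and its loss in humans causes a leukodystrophy with white matter oedema.

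The study compared spinal cord cells between vertebrates, and the present values come from its fugu and chicken libraries, 2 of each species. Fugu were juveniles about 1 month after hatching, labelled Takifugu obscurus and described in the methods as a hybrid of T. obscurus and T. rubripes, whose reads were mapped to the T. rubripes genome. Chickens were embryos of day 10 to 11 (Hamburger-Hamilton stage 36 to 37). No genotype or treatment distinguished any library. Each held the rostral cord of several pooled animals, from which dead cells had been sorted away with propidium iodide. A standard deviation (SD) given here is thus the spread between 2 pools.

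The 2 fugu libraries held 2556 and 2519 kept cells with medians of 5393.5 and 5460 UMIs (unique molecular identifiers, counted once per captured RNA molecule), and the 2 chicken libraries 7626 and 7743 cells with medians of 12130 and 12434 UMIs. The libraries of a species shared 0 barcodes in fugu and 17 in chicken. Cells were clustered with the members and a list of related water and ion transport genes left out, so that their levels did not shape the clusters, and the 14 fugu and 19 chicken clusters were named from marker lists or, where the markers were too few or mixed, after leading genes. Levels are given as CPM, the UMIs of a gene per 1000000 UMIs of all cells of a class in a library. A gene was called different between classes when its log2 fold change in edgeR passed 0.25 in size and its adjusted p lay below 0.05.

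The word glial is used here for clusters named from astrocyte or radial glia markers, without the oligodendrocyte lineage and microglia-like cells. Glial cells of fugu in this sense formed 3 clusters. The largest, slc1a2b glia, held 232 and 273 cells, carried 9 of 23 measured astrocyte or radial glia markers and had most of the slc1a2b, the glutamate transporter of astrocytes (10475 and 9219 CPM). The her9 glia (236 and 207 cells) carried 4 of these markers and little slc1a2b (253 and 244 CPM), and the krt94 glia (61 and 57 cells) carried 8, with slc1a2b between the others (3519 and 2912 CPM). gfap, an intermediate filament gene of astrocytes and radial glia, was at 696 and 809 CPM in slc1a2b glia, 1729 and 1878 CPM in her9 glia and 1746 and 2663 CPM in krt94 glia. These genes took part in the clustering, so their levels describe the clusters and test nothing. A separate cycling cluster (71 and 74 cells) had 8 of 10 cycling markers and 2 of the glial markers, sox2 and gfap. It also had 2 oligodendrocyte lineage markers (pdgfra and cspg4), 2 ependymal or floor plate markers (rsph1 and tekt1) and sema5a. Of the oligodendrocyte lineage markers, her9 glia had pdgfra and cspg4, krt94 glia pdgfra and enpp6, and slc1a2b glia enpp6. The leading genes of her9 glia included mcm4, mcm5 and mcm6.

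In fugu, aqp1a.1 was a gene of the glial clusters and of the cycling cluster. It was highest in krt94 glia, at 2406 and 2609 CPM in libraries 1 and 2 (mean 2508 ± 143, SD, n = 2). The slc1a2b glia followed at 1438 and 1358 CPM (1398 ± 56.6) and the her9 glia at 665 and 616 CPM (641 ± 34.8). The cycling cluster had 456 and 459 CPM. In this order no 2 neighbouring classes overlapped between their libraries.

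Below these 4 classes the levels of aqp1a.1 dropped and their spread grew. A cluster of 21 cells led by the globin gene hbbe2 had 137 and 162 CPM, and scrt2 neurons had 78.9 and 162 CPM. All other classes lay at 65.0 CPM or less in either library, and most of them overlapped their neighbours. Mature oligodendrocyte-like cells, the most abundant class with 1230 and 1112 cells, had 2.30 and 3.36 CPM. In barcodes of 100 UMIs or fewer, which hold free RNA and debris, aqp1a.1 was at 110 and 88.9 CPM. This value, called the free RNA level here, is the share of the gene in free RNA. It is not the amount that free RNA adds to a cell, which was not measured.

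The share of cells with an aqp1a.1 UMI followed another order than the level. It was 85.2% and 91.2% in krt94 glia, 71.2% and 75.8% in her9 glia, 67.7% and 67.0% in slc1a2b glia and 60.6% and 55.4% in the cycling cluster. Microglia-like cells, taken as a background class without a test, had a UMI in 0% and 2.70% of cells at median depths of 5021 and 5315 UMIs. With every cell thinned to 3000 UMIs the shares were 82.0% and 84.2%, 55.5% and 62.8%, 61.6% and 59.7%, and 47.9% and 48.6%, so that the order of her9 and slc1a2b glia differed between libraries and is not read here.

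mlc1 had a narrower pattern. It was highest in slc1a2b glia at 1362 and 1379 CPM (1371 ± 11.9), lower in krt94 glia at 753 and 668 CPM (711 ± 59.5) and lower again in her9 glia at 151 and 161 CPM (156 ± 6.85). The 3 glial clusters did not overlap. The cycling cluster, where aqp1a.1 was higher than in the classes below it, had 31.8 and 15.1 CPM of mlc1 and overlapped the mural-like cells (15.97 and 27.1 CPM). Every other class had at most 36.8 CPM, and T or NK cell-like cells and the hbbe2 cluster had no mlc1 UMI, which in their 114 and 21 cells allows shares of up to 2.63% and 14.3% of cells with a UMI and sets no limit on cells that express the gene below detection. The free RNA level was 54.8 and 56.9 CPM.

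**Figure D1:**
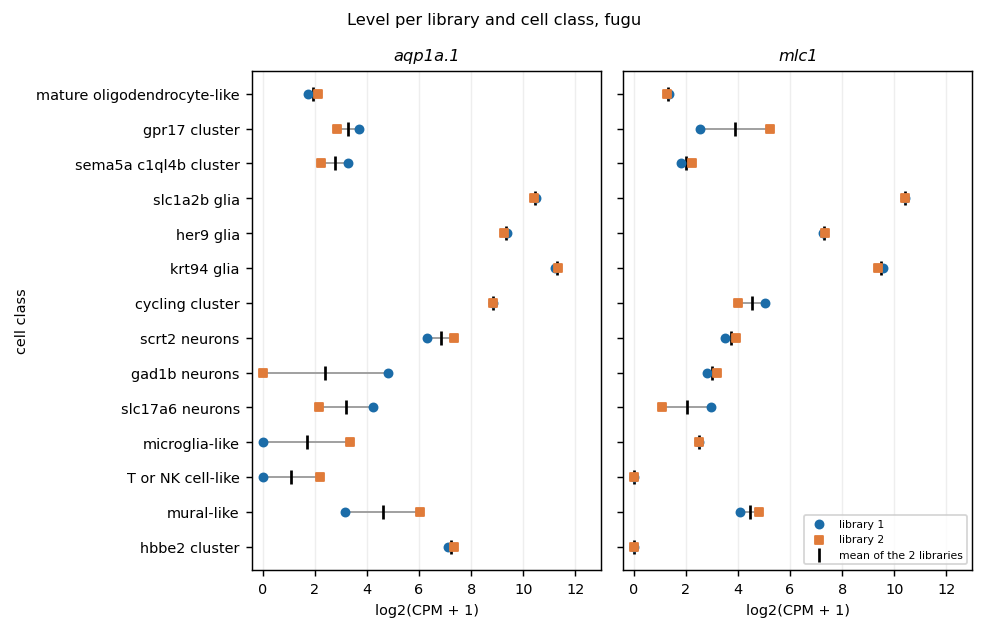
Level of aqp1a.1 and mlc1 in each fugu cell class, as log2(CPM + 1), with a circle for library 1, a square for library 2 and a bar at their mean on this scale. Both genes stand apart in the 3 glial clusters, aqp1a.1 also in the cycling cluster (456 and 459 CPM) where mlc1 does not (31.8 and 15.1 CPM).

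Each glial cluster was compared with the mean of the other classes in edgeR. aqp1a.1 was higher in krt94 glia (log2 fold change 6.15 ± 0.23, SE, adjusted p = 1.9e-18), slc1a2b glia (5.25 ± 0.23, 1.8e-17), her9 glia (4.62 ± 0.24, 4.1e-15) and the cycling cluster (3.84 ± 0.28, 2.4e-12). In the same fits 19.9%, 42.1%, 36.4% and 36.1% of the 11443 genes tested were called, 15.3%, 27.8%, 26% and 26.3% as higher and 4.62%, 14.4%, 10.4% and 9.86% as lower. mlc1 was higher in slc1a2b glia (6.98 ± 0.16, 1.6e-23), krt94 glia (5.93 ± 0.20, 5.5e-19) and her9 glia (4.17 ± 0.21, 3.9e-15). In the cycling cluster its difference of 0.95 ± 0.47 was not called (adjusted p = 0.126), though it was called at the higher UMI minimum (1.61, adjusted p = 0.028) and without doublet removal (1.28, adjusted p = 0.036).

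The glial clusters were then set against each other, in contrasts added after the clusters were seen. For mlc1 each pair differed. It was higher in slc1a2b than in her9 glia (log2 fold change 2.59 ± 0.23, adjusted p = 5.5e-10, where 36% of genes were called, 18.1% higher and 17.8% lower) and higher in krt94 than in her9 glia (1.63 ± 0.24, 1.1e-05, with 11.7% called, 6.25% higher and 5.44% lower). It was lower in krt94 than in slc1a2b glia (-0.96 ± 0.22, 0.0060, with 7.31% called, 3.36% higher and 3.95% lower), a call that was lost without replicate 2 of the krt94 glia (-0.89, adjusted p = 0.11).

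For aqp1a.1 the pairs were less clear, although the libraries of the clusters did not overlap. krt94 glia were above her9 glia (1.41 ± 0.36, adjusted p = 0.0087), a call that did not hold in DESeq2 (1.57, adjusted p = 0.29) or without replicate 2 of the krt94 glia (1.34, adjusted p = 0.054). krt94 against slc1a2b glia gave 0.83 ± 0.36 (adjusted p = 0.19, 95% interval 0.09 to 1.56 before adjustment) and was called only without the filter on low counts (0.67, adjusted p = 0.014). slc1a2b against her9 glia gave 0.58 ± 0.35 (adjusted p = 0.22, interval -0.14 to 1.31). The scaling bears on the last value, since TMM factors moved the median gene by -0.55 between these clusters relative to plain CPM. On plain CPM the difference was 1.13 and was called (adjusted p = 0.012), as it was without the filter on low counts (0.66, adjusted p = 0.0043). It was also called at the higher UMI minimum (1.09, adjusted p = 0.0037), but on partly other cells. There krt94 glia formed no cluster of their own, and 89.0% of the 492 cells taken as slc1a2b glia were slc1a2b glia here. Median depths in the main clusters were 4341 and 4265 UMIs in krt94, 7048 and 7397 in slc1a2b and 6801.5 and 6337 in her9 glia.

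The relative amount of the 2 genes thus differed by cluster. slc1a2b glia had 1.06 and 0.985 UMIs of aqp1a.1 per UMI of mlc1 in the 2 libraries. In krt94 glia the ratio was 3.197 and 3.903 and in her9 glia 4.40 and 3.83, so that these clusters overlapped each other and both lay above slc1a2b glia. In the cycling cluster it was 14.4 and 30.4, from only 20 and 10 mlc1 UMIs. Barcodes of 100 UMIs or fewer had 2.01 and 1.56.

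Cells within slc1a2b glia were more uneven for aqp1a.1 than for mlc1. In this cluster 75 of 232 and 90 of 273 cells had no aqp1a.1 UMI, while 44 and 53 cells had 20 or more and the highest cells 62 and 108. For mlc1 in the same cells the median was 9 UMIs in both libraries and 0 and 2 cells had none. In krt94 glia the median cell held 10 and 9 UMIs of aqp1a.1 and 3 of mlc1 in both libraries. In her9 glia the median was 2 UMIs of aqp1a.1 and 1 of mlc1 in both libraries. There, 13 and 6 cells reached 20 aqp1a.1 UMIs, and more cells lacked mlc1 (42.4% and 40.6%) than lacked aqp1a.1 (28.8% and 24.2%).

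Fugu glia were to be compared as gfap-positive against slc1a2b-positive clusters, but gfap was found in 84.4% of slc1a2b glia, 95.3% of her9 glia and 92.4% of krt94 glia, so no cluster was without it and this contrast could not be fitted. The cells of each cluster were instead split by whether they had a gfap UMI, which is a description of cells of the same libraries. In slc1a2b glia, aqp1a.1 was at 1657 CPM in the 188 cells with gfap and 338 CPM in the 44 cells without it in library 1, and at 1487 against 445 CPM (238 and 35 cells) in library 2. aqp1a.1 was thus higher with gfap in both libraries, by 2.29 and 1.74 on the log2 scale. mlc1 in the same cells was at 1366 against 1344 CPM and 1389 against 1309 CPM, which differ by 0.02 and 0.09 on the log2 scale.

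In her9 glia the split ran the other way for aqp1a.1, on few cells. It was at 629 CPM with gfap against 2175 CPM in 9 cells without it in library 1, and at 554 against 2005 CPM in 12 cells in library 2. The log2 ratios of -1.79 and -1.86 became -0.06 and -0.65 when the UMI minimum was 1.5 times as high. Cells were clustered anew at that minimum, and 90.4% of the 395 cells then taken as her9 glia were her9 glia here. These ratios are thus not of the same cells, and the part of depth was not tested. In krt94 glia aqp1a.1 was at 2430 against 2078 CPM and 2654 against 1871 CPM, with 5 and 4 cells lacking gfap. Over all glial cells together aqp1a.1 was higher with gfap by 0.86 and 0.61 and mlc1 lower by 0.74 and 0.31, values that mix the clusters in unequal shares.

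**Figure D2:**
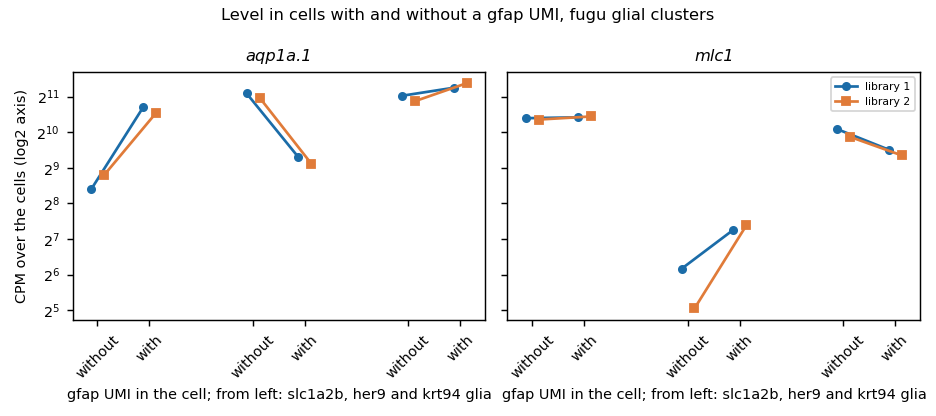
CPM of aqp1a.1 and mlc1 over fugu glial cells without and with a gfap UMI, on a log2 axis, with a line per library within each cluster (from the left slc1a2b, her9 and krt94 glia). The aqp1a.1 lines rise in slc1a2b glia (338 to 1657 and 445 to 1487 CPM) and fall in her9 glia (2175 to 629 and 2005 to 554 CPM), where only 9 and 12 cells lack gfap.

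Counts per cell, thinned to 3000 UMIs, were also compared. Across the 232 and 273 slc1a2b glia, Spearman's rho of aqp1a.1 with gfap was 0.48 and 0.34 and with slc1a2b -0.46 and -0.38, while with mlc1 it was 0.17 and 0.08. In her9 glia aqp1a.1 had a rho of -0.26 and -0.21 with gfap and in krt94 glia -0.26 and -0.17, the latter opposite in sign to the split of krt94 glia by a gfap UMI. Cells of 1 library share their animals and preparation, so these are descriptions with no test.

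Other genes of the water list were followed between slc1a2b glia with and without aqp1a.1, whose median depths were 7057 and 6819 UMIs in library 1 and 7519 and 7214 in library 2. KCNJ10 (ENSTRUG00000008764), the inward rectifier potassium channel that clears potassium in astrocytes, was at 4511 against 2410 CPM and 4819 against 2905 CPM, higher with aqp1a.1 in both libraries. The carbonic anhydrase ca2 was at 269 against 138 and 169 against 95.4 CPM. cav1 (caveolin) and agrn (agrin, a matrix protein of the perivascular basement membrane) were lower with aqp1a.1, cav1 at 67.5 against 169 and 82.9 against 108 CPM, and agrn at 306 against 430 and 361 against 568 CPM. The bicarbonate cotransporter slc4a4a was close to equal (2710 against 2762 and 2903 against 3072 CPM).

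The 2 fugu AQP4 rows had no UMI in any kept cell, and none in any of the 1214749 and 1223695 barcodes. Over the 5075 kept cells a count of 0 allows a share of up to 0.0591% of cells with a UMI. This limit covers counting error only. Whether reads of AQP4 could be counted on these rows was not tested, so the 0 is not read as a lack of expression.

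Among neurons aqp1a.1 was found in the scrt2 cluster, which takes its name from a transcription factor of newly born neurons. It had 38 and 69 UMIs there, 78.9 and 162 CPM, against 26.7 and 0 CPM in gad1b neurons and 17.8 and 3.41 CPM in slc17a6 neurons, and the cluster lay above both in each library. The free RNA level was 110 and 88.9 CPM, which is a share of free RNA and gives no amount of it in a cell. The log2 fold change against those neurons was 3.48 ± 0.49 (adjusted p = 2.1e-06, with 35.3% of genes called, 15.1% higher and 20.2% lower), and that of mlc1 1.33 ± 0.64 (adjusted p = 0.11). The scrt2 cells with an aqp1a.1 UMI, 10 and 15 in number, had sox2, a gene of neural progenitors and glia, in 80% and 73.3% of cells, against 5.75% and 21.1% of the cells without aqp1a.1. gfap was found in 30% and 26.7% against 5.75% and 10.5%, and scrt2 in 70% and 66.7% against 73.6% and 71.9%. The oligodendrocyte lineage markers, 21 in number, summed to 32629 and 35649 CPM in scrt2 neurons, against 2015 and 1757 CPM in gad1b and 3352 and 3244 CPM in slc17a6 neurons, and 1 of them (pdgfra) passed the marker rule in scrt2 neurons. The part of free RNA, and of glial and oligodendrocyte RNA or cells, in the difference was not tested.

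The genes most alike to each member were taken by Pearson's r of log2(CPM + 1) over the 26 sums of library and class, among 11442 other genes. For aqp1a.1 these were gfap (r = 0.943), soul5 (0.925), MSI1 (ENSTRUG00000016249, 0.922), the Notch target her4.1 (0.919) and uacab (0.915). For mlc1 they were the ectonucleotidase ENTPD2 (0.959), ENSTRUG00000009496 (0.955), ENSTRUG00000033499 (0.9498), cyp27c1 (0.946) and the taurine transporter SLC6A6 (0.917). The lists share no gene, and the sums share libraries and total depth, so r is given as a description.

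The water list held 50 fugu features, of which 33 were detected in 5% or more of some class and 29 passed the filter for testing. By share of cells, not thinned to a common depth, slc1a2b glia led for both KCNJ10 copies, slc4a4a, mlc1, hepacama, HEPACAM, gpr37l1b, agrn, ca2, cav1, dag1, DAG1 and aqp9b. Neurons led for the pump subunits atp1b2b and ATP1B2, the carbonic anhydrase ca4a, DMD, dtna, dtnbb, the volume-regulated channel subunit lrrc8aa and slc12a2. Others led in the oligodendrocyte lineage (atp1b1a, atp1a2a), a sema5a c1ql4b cluster (SLC12A7), the cycling cluster (atp1b1b), her9 glia (slc12a4), krt94 glia (aqp1a.1), microglia-like cells (aqp11) or mural-like cells (aqp7, trpv4). For trpv4 this rests on library 1, since 13.3% and 0% of mural-like cells had it and all kept cells together held 6 UMIs. In slc1a2b glia against the other classes 19 of the 29 were called higher and 4 lower, where 27.8% and 14.4% of all genes were, with a list median log2 fold change of 2.41 beside 0.05 over all genes. In krt94 glia it was 15 higher and 1 lower, beside 15.3% and 4.62% of all genes (median 1.67 beside 0.01) and in her9 glia 13 higher and 2 lower, beside 26% and 10.4% (0.80 beside 0.14). slc1a2b glia stood above her9 glia for 11 of the 29 and below for 3, beside 18.1% and 17.8% of all genes. Among these were slc4a4a (4.92), the adhesion gene HEPACAM (3.36), the copies of KCNJ10 (3.28 for ENSTRUG00000001706 and 2.58 for ENSTRUG00000008764) and the receptor gpr37l1b (3.28), all higher in slc1a2b glia. Between krt94 and slc1a2b glia 6 of the 29 were called, all lower in krt94 glia and mlc1 among them, beside 3.95% of all genes called lower.

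Of 13 aquaporin features in fugu, 4 were detected in 5% or more of some class and 4 had no UMI. Besides aqp1a.1 these were aqp11 in microglia-like cells (32.9% and 23.9% of cells), aqp7 in mural-like cells (16.7% and 16.3%) and the aquaglyceroporin aqp9b in slc1a2b glia (7.76% and 7.33%). aqp1a.2, the neighbouring copy by name, had 9 UMIs over all kept cells.

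In chicken, the glial cells formed 4 clusters, SLC1A2 glia (1154 and 1222 cells), POSTN glia (723 and 838), cycling glia (308 and 412) and ependymal-like cells (71 and 61), with 10, 8, 8 and 4 of the 12 measured astrocyte or radial glia markers. Ependymal-like cells carried 6 of 10 ependymal or floor plate markers, among them FOXJ1. POSTN glia and cycling glia each carried 4 of these 10, FOXJ1 included. Both also carried 3 of 8 meningeal or fibroblast markers (DCN, COL1A2 and COL3A1), and POSTN glia 3 of 7 mural markers (TPM2, PDGFRB and TAGLN).

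AQP4 was a gene of all chicken clusters called glial here. POSTN glia had 3859 and 3599 CPM (3729 ± 184), SLC1A2 glia 3150 and 3150 CPM and cycling glia 3112 and 2965 CPM (3039 ± 104), and in these 3 clusters every cell of both libraries had a UMI. Ependymal-like cells had 803 and 881 CPM (842 ± 54.7), in 80.3% and 88.5% of cells. The 4 clusters did not overlap. The PDGFRA cluster of the oligodendrocyte lineage came next with 140 and 131 CPM. Most of the remaining classes lay between 11.3 and 50.5 CPM, and PKD2L1 neurons were at 20.8 and 121 CPM. Not all of these classes overlapped each other. The TOP2A cycling cluster lay above the MCM2, GPR17, CMTM7, ENPP6 and ERMN clusters in both libraries. The free RNA level was 566 and 649 CPM, again a share of free RNA and not an amount in a cell.

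AQP1 was unevenly spread over the same glia. POSTN glia had 3517 and 4086 CPM (3802 ± 402) and cycling glia 1216 and 1527 CPM (1371 ± 220), whereas SLC1A2 glia had 53.0 and 63.7 CPM (58.4 ± 7.54). Ependymal-like cells lay between at 343 and 342 CPM. Outside glia, a small cluster led by FN1 and ACTA2 (73 and 98 cells) had 793 and 897 CPM, more than ependymal-like cells and less than cycling glia in both libraries. All other classes lay at 52.1 CPM or less, and the free RNA level was 263 and 430 CPM. Not all of these classes overlapped each other, since NEUROD6 neurons lay above the PDGFRA cluster in both libraries.

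The share of cells with an AQP1 UMI was 95.7% and 93.4% in POSTN glia, 98.6% and 100% in the FN1 ACTA2 cluster, 44.2% and 54.4% in cycling glia, 43.7% and 36.1% in ependymal-like cells and 14.3% and 20.4% in SLC1A2 glia. SLC32A1 neurons were taken as a background class, and their lack of the gene was not tested. They had a UMI in 10.7% and 22.2% of cells at median depths of 22972 and 25327.5 UMIs, and SLC1A2 glia had medians of 8925.5 and 8664. Thinned to 5000 UMIs the shares were 3.88% and 4.89% in these neurons and 10.5% and 14.9% in SLC1A2 glia. NEUROD6 neurons (11.0% and 17.6%) and endothelial-like cells (11.5% and 29.2%) were at or above SLC1A2 glia, so the share in SLC1A2 glia is not read as expression.

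MLC1 was, like AQP4 and unlike AQP1, far above the other classes in all 4 glial clusters. Over single cells thinned to 5000 UMIs its rho was higher with AQP1 than with AQP4 in POSTN glia (0.24 and 0.19 against -0.004 and 0.04). The same held in cycling glia (0.31 and 0.28 against 0.08 and 0.09), and in the other glial clusters the order differed between libraries. It was at 1270 and 1178 CPM in ependymal-like cells, 993 and 1006 CPM in POSTN glia, 551 and 628 CPM in SLC1A2 glia and 540 and 540 CPM in cycling glia. Every class outside the 4 glial clusters had at most 38.1 CPM. By plain CPM, ependymal-like cells, lowest of the glial clusters for AQP4, were thus highest for MLC1. TMM factors were 1.26 and 1.27 in ependymal-like cells and 1.05 and 1.07 in POSTN glia. With these factors the log2 fold changes of MLC1 against SLC1A2 glia were close, 0.74 in ependymal-like cells and 0.71 in POSTN glia. Ependymal-like cells and POSTN glia were not tested against each other.

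**Figure D3:**
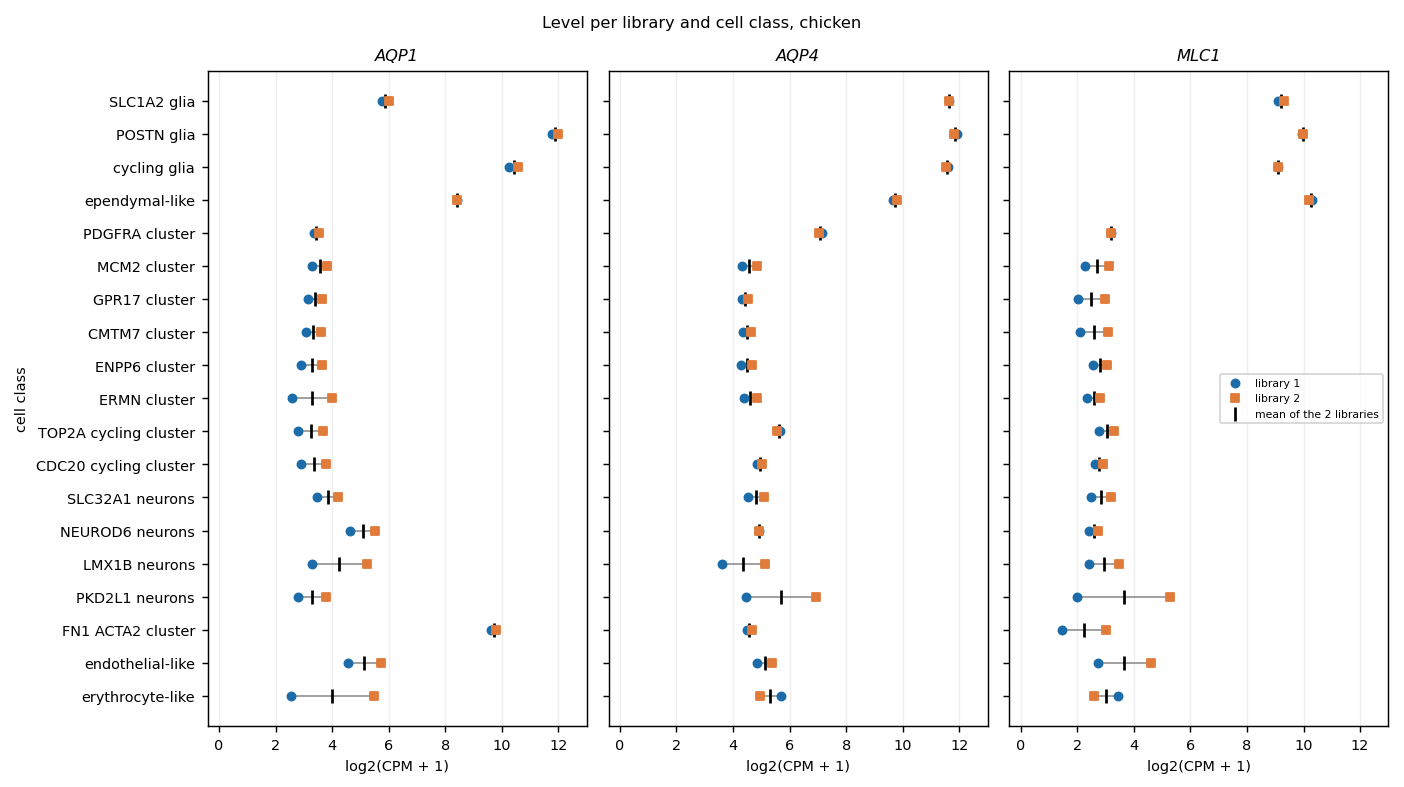
Level of AQP1, AQP4 and MLC1 in each chicken cell class, as log2(CPM + 1), with a circle for library 1, a square for library 2 and a bar at their mean on this scale. AQP4 is near 3000 CPM or above in SLC1A2, POSTN and cycling glia alike, while AQP1 in SLC1A2 glia (53.0 and 63.7 CPM) is far below POSTN glia (3517 and 4086 CPM).

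Against the mean of the other classes AQP4 was higher in POSTN glia (log2 fold change 5.78 ± 0.13, adjusted p = 1.3e-23), SLC1A2 glia (5.57 ± 0.13, 2.6e-23), cycling glia (5.29 ± 0.13, 3.2e-22) and ependymal-like cells (3.23 ± 0.17, 7.0e-15), in fits where 49.1%, 50.3%, 50.8% and 41.2% of 13236 genes were called. Calls as higher made up 32.6%, 33.3%, 31.2% and 25.4% of genes and calls as lower 16.6%, 17%, 19.5% and 15.8%. AQP1 was higher in POSTN glia (6.96 ± 0.16, 2.7e-23), cycling glia (5.23 ± 0.18, 1.3e-19) and ependymal-like cells (3.02 ± 0.26, 2.4e-10). In SLC1A2 glia AQP1 gave 0.65 ± 0.26 (adjusted p = 0.039), which was called in 4 of 11 alternatives and was -0.40 without doublet removal. No direction is therefore given for AQP1 in SLC1A2 glia.

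The glial clusters were also set against SLC1A2 glia, in contrasts added after the clusters were seen. AQP1 was higher in POSTN glia (log2 fold change 5.97 ± 0.43, adjusted p = 4.4e-11, with 23.1% of genes called, 12.4% higher and 10.7% lower), in cycling glia (4.34 ± 0.40, 1.8e-09, with 27.6% called, 10.8% higher and 16.8% lower) and in ependymal-like cells (2.24 ± 0.39, 3.8e-05, with 35.6% called, 16.9% higher and 18.7% lower). For AQP4 the difference of POSTN glia was 0.19 ± 0.27 (adjusted p = 0.69, 95% interval -0.36 to 0.75 before adjustment) and that of cycling glia -0.27 ± 0.27 (adjusted p = 0.51, interval -0.82 to 0.29). Neither was called under any alternative, and the intervals leave room for differences of up to 1.68-fold and 1.77-fold. Ependymal-like cells had less AQP4 (-2.22 ± 0.29, 5.5e-07).

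MLC1 differed less than AQP1 in each of these contrasts. Ependymal-like cells were above SLC1A2 glia by 0.74 ± 0.27 (adjusted p = 0.031), a call kept in 7 of 11 alternatives. POSTN glia were above by 0.71 ± 0.26 with an adjusted p of 0.051, short of the threshold. This difference was called in 8 of 11 alternatives, among them the fit with the library as a block (0.72, adjusted p = 0.00078). Cycling glia were not called (-0.34 ± 0.26, adjusted p = 0.37).

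Within the cycling glia AQP1 split the cells. In library 1, 172 of 308 cells had no AQP1 UMI and 84 cells (27.3%) had 20 or more, and in library 2 these were 188 of 412 and 127 (30.8%). Only 13 and 11 cells held 10 to 19 UMIs, fewer than on either side. For AQP4 no cell of this cluster was at 0, and the medians were 35 and 33 UMIs. In POSTN glia the median cell held 30 and 39 AQP1 UMIs, and in SLC1A2 glia 0 in both libraries.

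**Figure D4:**
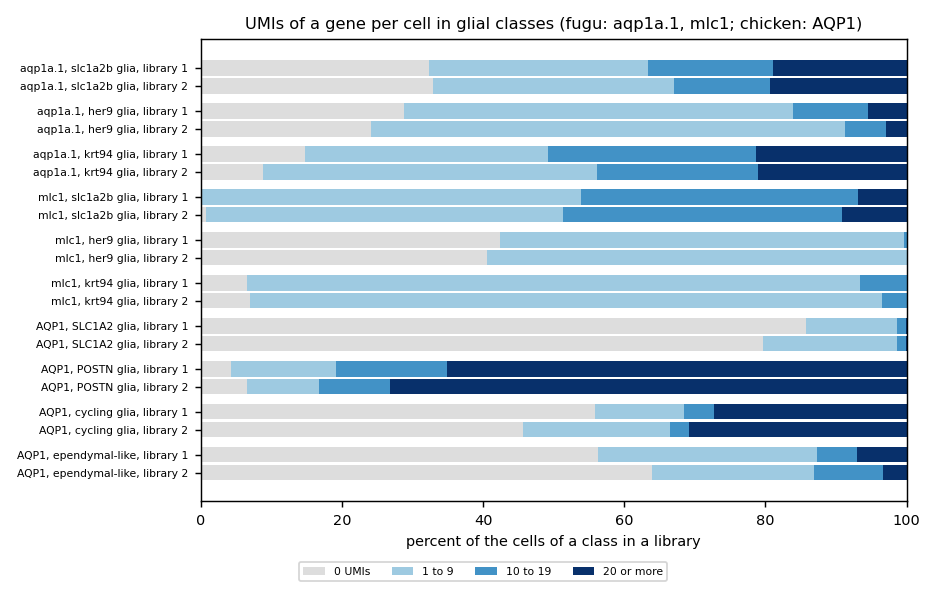
Percent of the cells of a glial class in a library that had 0, 1 to 9, 10 to 19 or 20 or more UMIs of aqp1a.1 or mlc1 (fugu) or AQP1 (chicken). In cycling glia most cells have either no AQP1 UMI (172 of 308 and 188 of 412 cells) or 20 or more (84 and 127 cells), and in fugu slc1a2b glia nearly all cells have mlc1 while 75 and 90 cells lack aqp1a.1.

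Cycling glia with AQP1 differed from those without it in genes that also separate POSTN from SLC1A2 glia. POSTN itself, a matricellular protein, was at 406 against 3.07 CPM in library 1 and 207 against 8.72 CPM in library 2, and SLC1A2 at 200 against 612 and 223 against 624 CPM. GFAP was at 375 against 98.2 and 306 against 118 CPM. AQP1-positive cells were thus high in POSTN and GFAP and low in SLC1A2 in both libraries. AQP4 (3313 against 2941 and 3184 against 2673 CPM) and MLC1 (631 against 464 and 624 against 429 CPM) differed by less. The glial marker SOX2 was close to equal (387 against 385 and 423 against 452 CPM). AQP1-positive cells were deeper, with medians of 12381.5 and 12197.5 UMIs against 10842 and 10651. Spearman's rho of AQP1 over these cells, thinned to 5000 UMIs, was -0.60 and -0.61 with SLC1A2 and 0.44 and 0.50 with GFAP.

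In ependymal-like cells AQP4 went with GFAP, with a rho of 0.37 and 0.53 over 71 and 61 cells, against -0.07 and 0.07 for AQP1. AQP4 also had a positive rho with GFAP in SLC1A2 glia (0.24 and 0.22), POSTN glia (0.29 and 0.20) and cycling glia (0.27 and 0.30). In those clusters AQP1 did too, at 0.16 and 0.18, 0.33 and 0.38, and 0.44 and 0.50. AQP1 was at 0 in 40 and 39 of the ependymal-like cells, and 5 and 2 cells held 20 or more UMIs. The choroid plexus markers, 5 of which were measured, summed to 8.76 and 4.35 CPM in this cluster, and none passed the marker rule.

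AQP4 was higher in the PDGFRA cluster than in 5 other oligodendrocyte lineage clusters. PDGFRA is the receptor of oligodendrocyte precursors. The cluster had 140 and 131 CPM of AQP4, and the other 5 lineage clusters lay between 18.7 and 27.8 CPM, with no overlap. The log2 fold change was 2.33 ± 0.20 (adjusted p = 7.0e-11, in a fit where 57.7% of genes were called, 33.7% higher and 23.9% lower), and it was called under all 11 alternatives at 2.08 to 2.61. AQP1 was not called in the same contrast (-0.28 ± 0.40, adjusted p = 0.57), nor was MLC1 (0.30 ± 0.34, adjusted p = 0.48). The ratio of AQP1 to AQP4 UMIs was 0.0662 and 0.0809 in the PDGFRA cluster. In the other 5 it was 0.252 to 0.472 in library 1 and 0.469 to 0.543 in library 2. Barcodes of 100 UMIs or fewer had 0.465 and 0.663. The part of free RNA in these UMIs was not tested.

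AQP4 was found in 65.6% and 69.2% of PDGFRA cells, with a median of 1 UMI and a highest cell of 13 and 9. Thinned to 5000 UMIs the shares were 42.0% and 43.8%, against 7.75% to 14.2% in the other 5 lineage clusters. The TOP2A and CDC20 cycling clusters were outside this contrast but carried OLIG2, NKX2-2 and PDGFRA. The TOP2A cluster had AQP4 at 49.4 and 46.4 CPM, in 22.2% and 20.9% of thinned cells, between the PDGFRA cluster and the other 5, with a ratio of AQP1 to AQP4 UMIs of 0.122 and 0.255. The CDC20 cluster had 28.1 and 31.3 CPM, in 9.45% and 13.2% of thinned cells. Against the mean of all other classes, glia included, AQP4 in the PDGFRA cluster gave 0.63 ± 0.20 (adjusted p = 0.012) with 39.8% of genes called (28.4% higher and 11.4% lower), was called in 5 of 11 alternatives and was -0.36 without doublet removal, so no direction is given for that comparison. AQP1 was lower there (-2.19 ± 0.39, 3.9e-05).

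The FN1 ACTA2 cluster had AQP1 with almost no AQP4. AQP4 was at 21.3 and 24.4 CPM, and the ratio of AQP1 to AQP4 UMIs was 37.2 and 36.8, above every other class. The cluster carried 4 of 7 mural markers (DES, ACTA2, RGS5 and PDGFRB), 3 of 10 endothelial markers and 5 of 8 meningeal or fibroblast markers, so it was given no cell type name. Endothelial-like cells (26 and 24 cells, 9 of 10 endothelial markers) had 22.4 and 52.1 CPM of AQP1. The log2 fold change between them was 4.68 ± 0.65 (adjusted p = 3.3e-06, with 16.4% of genes called, 8.52% higher and 7.93% lower) for AQP1 and -0.40 ± 0.82 (adjusted p = 0.86, interval -2.10 to 1.29) for AQP4. Against the mean of all other classes AQP1 was higher in the FN1 ACTA2 cluster (4.58 ± 0.22, 4.6e-16, with 37.1% called, 21.4% higher and 15.7% lower).

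**Figure D5:**
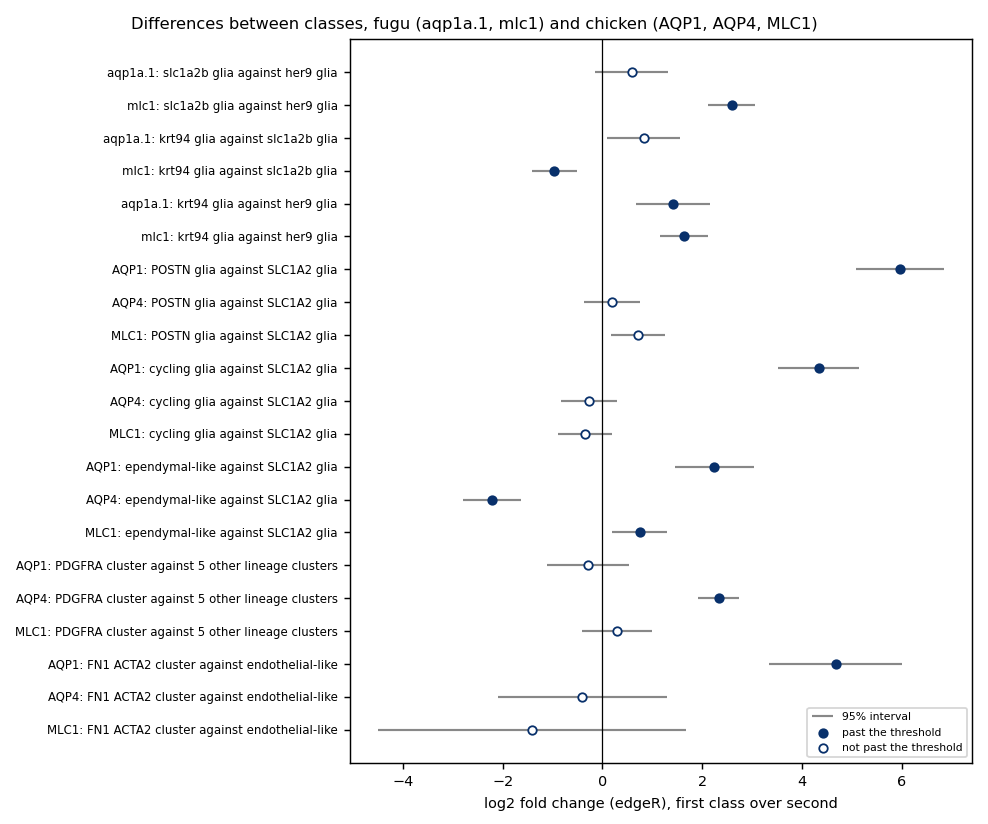
Log2 fold change between pairs of classes from edgeR for the fugu and chicken genes, with the 95% interval before adjustment as a line. Filled points passed the threshold and open points did not, among them AQP4 in POSTN against SLC1A2 glia (0.19) beside AQP1 in the same pair (5.97).

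By likeness over the 38 sums, among 13235 other genes, AQP1 was closest to the matrix metalloprotease MMP11 (r = 0.971), the BMP target ID3 (0.935), METRN (0.896), C1QTNF6 (0.893) and SYNPO (0.892). AQP4 was closest to ENSGALG00010029214 (0.971), PPDPFL (0.970), LRIG1 (0.967), OPTC (0.961) and ACSBG1 (0.959), and MLC1 to OPTC (0.978). OPTC was the gene that the lists of AQP4 and MLC1 had in common, and that of AQP1 held neither it nor any other gene of theirs.

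The chicken water list held 33 features, of which 25 were detected in 5% or more of some class and 25 were tested. By share of cells, the glial clusters led for AQP4, MLC1, SLC4A4, DMD, GPR37L1, CLCN2 and AQP9, and the oligodendrocyte lineage for SLC12A2, DAG1, HEPACAM and LAMA2. Neurons led for ATP1B1, DTNA, SLC12A4, SLC12A7, LRRC8A and AQP11, the FN1 ACTA2 cluster for AGRN, AQP1 and CA2, and endothelial-like cells for CA4, CAV1 and KCNJ16. These shares were not thinned and depend on depth, which was highest in SLC32A1 neurons (medians of 22972 and 25327.5 UMIs). For KCNJ16 the lead rests on few cells, 7.69% of 26 and 4.17% of 24 endothelial-like cells, and all kept cells together held 62 UMIs. By CPM, AQP1 was highest in POSTN glia. Against the other classes 16 were called higher and 1 lower in POSTN glia (list median 1.38 beside 0.11 over all genes), where 32.6% and 16.6% of all genes were. Ependymal-like cells had 15 and 0 (1.61 beside 0.01) where 25.4% and 15.8% of all genes were called, and cycling glia 14 and 2 (1.05 beside 0.07) where 31.2% and 19.5% were. SLC1A2 glia had 12 and 4 (0.98 beside 0.13) where 33.3% and 17% were. POSTN glia stood above SLC1A2 glia for 7 and below for 2, beside 12.4% and 10.7% of all genes. The pump subunit ATP1B1 (1.59) was higher and the carbonic anhydrase CA2 (-2.76) and the chloride channel CLCN2 (-4.28) were lower. In the PDGFRA cluster against the other lineage clusters 13 of 25 were higher and 2 lower (median 1.18 beside 0.10), where 57.7% of all genes were called, so that the calls of both directions together were near the background. By direction, calls as higher made up a larger share of the list than of all genes, and calls as lower a smaller share. The highest were the laminin LAMA2 (4.70), the bicarbonate cotransporter SLC4A4 (4.46), CAV1 (3.74) and the dystrophin gene DMD (3.31), part of the complex that anchors AQP4 in mammalian endfeet. Of the 11 aquaporin features, only AQP1, AQP4, AQP11 and AQP9 reached 5% of the cells of a class, AQP9 in 8.99% and 4.89% of POSTN glia and AQP11 in 7.15% and 7.11% of SLC32A1 neurons.

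Across species the patterns are set side by side, with no test, since stage, depth and annotation differ. The aquaporin-1 genes had their highest level in a glial cluster in both, aqp1a.1 in krt94 glia (2508 CPM) and AQP1 in POSTN glia (3802 CPM). For aqp1a.1 the difference of krt94 from slc1a2b glia was not called in edgeR (adjusted p = 0.19). In fugu every cluster called glial here had at least 616 CPM of aqp1a.1. In chicken SLC1A2 glia, the largest such cluster, had at most 63.7 CPM of AQP1. mlc1 and MLC1 were found in every glial cluster of both species. AQP4 UMIs were found in chicken alone, and whether reads could be counted on the fugu AQP4 rows was not tested.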

How the data were processed

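Single-cell 3′ RNA libraries of fugu and chicken spinal cord were used. The UMI count matrices deposited by the authors hold whole counts per gene and barcode, made with Cell Ranger 7.2.0 per the labels, with no normalization. The mudskipper files were not used here.

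Barcodes with more than 3000 (fugu), 5000 (chicken library 1) or 5500 (chicken library 2) UMIs were kept, with minimum gene numbers of 90, 80, 150 and 160 in the 4 libraries. The barcodes with the highest Scrublet scores were removed as doublets at 0.8% per 1000 barcodes (54 and 53 in fugu, 532 and 550 in chicken). Cells were clustered in Seurat 5.3.0 on 2000 variable features and 10 components at resolution 0.5. A marker counted for a cluster when 10% or more of its cells held it and its CPM was 1.5 times that of the other cells, and a cell type name needed 3 counted markers. Names were given by hand after the clusters were seen. Members and gene lists were chosen with earlier results of these data known.

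Counts were summed per library and class, with at least 20 cells in each, and gave 26 sums of 125211 to 6960970 UMIs in fugu and 38 sums of 172591 to 18884100 UMIs in chicken. The edgeR 4.0.16 quasi-likelihood test with TMM factors and Benjamini-Hochberg adjustment was fitted over all classes of a species in R 4.3.3, and all p-values printed beside fold changes are adjusted unless said otherwise. The fits had 13 and 19 residual degrees of freedom. The script was tested on simulated counts. Each library is a pool of animals. The p-values and the intervals of fold changes rest on a spread estimated over the sums of all classes. This treats classes of the same 2 pools as independent. The limit of 3 counts behind a count of 0 covers counting error only. All classes of a library came from the same animals, which pairs the classes. The deviations of classes of the same library correlated at a median of 0.0522 over 78 pairs in fugu and 0.111 over 171 pairs in chicken. The highest values were 0.235 in fugu and 0.455 in chicken.

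The genes named were the members, the water list genes detected in 5% or more of some class, and the 5 genes most alike to each member. Some genes of the water list are not reported here by name, though the counts over the list include them. The alternatives were RLE size factors, DESeq2 1.42.0, no filter on low counts, the library as a block, each replicate left out, a UMI minimum 1.5 times as high, no doublet removal, resolution 1, and clustering with the water list. Plain CPM and the contrasts between pairs of classes were added after seeing the data. Sequences were not analysed here.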

Additional observations from a re-analysis of the deposited data

Results flagged for a closer look

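In fugu slc1a2b glia the mean log2 ratio of aqp1a.1 in cells with over cells without a gfap UMI was 2.02, and in her9 glia it was -1.82. Both libraries moved up in the former and down in the latter, so the clusters went in opposite directions, and this difference was not tested. The her9 value rests on 9 and 12 cells without gfap.

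aqp1a.1 also had UMIs in the fugu hbbe2 cluster, which was too small to enter the fit. They were found in 9 of 21 cells (42.9%), above the 14.3% that a count of 0 allows, a limit that does not speak to background. The 15 and 16 UMIs came to 137 and 162 CPM beside 110 and 88.9 CPM in barcodes of 100 UMIs or fewer. After thinning to 3000 UMIs the share was 0% in library 1 and 40% in library 2. Oligodendrocyte lineage markers summed to 29654 and 31544 CPM in this cluster, and mlc1, gfap and slc1a2b were at 0. The part of free RNA in the aqp1a.1 UMIs was not tested, and they are not read as expression.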

How the results depend on the processing

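Of 406 alternatives over 38 fold changes of the members, 382 kept the direction and the side of the threshold. Without doublet removal AQP1 in SLC1A2 glia was -0.40, AQP4 in the PDGFRA cluster -0.36 and AQP4 in the FN1 ACTA2 cluster 0.20 against the other classes and 0.18 against endothelial-like cells, all opposite in sign, and mlc1 in the fugu cycling cluster was 1.28. At the higher UMI minimum cells were clustered anew, and krt94 glia formed no cluster. mlc1 in the fugu cycling cluster was then 1.61, AQP4 in the PDGFRA cluster 0.28 and aqp1a.1 in slc1a2b against her9 glia 1.09. The last was 0.66 without the filter on low counts and 1.13 on plain CPM, and krt94 against slc1a2b glia was 0.67 without the filter. DESeq2 lost the calls of aqp1a.1 in krt94 against her9 glia (1.57), AQP1 in SLC1A2 glia (0.63) and AQP4 in the PDGFRA cluster (0.59). AQP1 in SLC1A2 glia was 0.62 with RLE factors, 0.21 at resolution 1 and 0.043 when the water list was clustered, where AQP4 in the PDGFRA cluster was 0.40. The causes were not tested.

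With each replicate left out, AQP1 in SLC1A2 glia gave 0.50 to 0.73, AQP4 in the PDGFRA cluster 0.42 to 0.56, aqp1a.1 in krt94 against her9 glia 1.34 to 1.46 and mlc1 in krt94 against slc1a2b glia -1.15 to -0.89. Counts of called genes then fell from 2279 to 1371 (krt94 glia against the others), 837 to 395 (krt94 against slc1a2b), 1337 to 738 (krt94 against her9, 2037 on plain CPM), 4040 to 2656 (scrt2 neurons), 3052 to 1928 (POSTN against SLC1A2 glia) and 3658 to 2146 (cycling against SLC1A2 glia).

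With the library as a replicate block, the pairing changed the call of MLC1 in POSTN against SLC1A2 glia (0.72) and no other call. No paired analysis was possible for gfap-positive against slc1a2b-positive clusters because 1 side was empty, so the alternatives of that fit were not run. In the split of cells by gfap, aqp1a.1 moved to 1.60 in slc1a2b glia and -1.29 in her9 glia after thinning. It moved to -0.35 in her9 glia and 1.27 over all glial cells at the higher UMI minimum, where the krt94, scrt2 and FN1 ACTA2 contrasts gave no value. The clusters at that minimum were built anew and did not hold the same cells.

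TMM against plain CPM moved the median gene by -0.55 in slc1a2b against her9 glia. The share of calls that were higher went from 50.4% to 77.8% there, 53.5% to 86.8% in krt94 against her9 glia, 71.4% to 47.0% in her9 glia, 39.2% to 69.6% in cycling against SLC1A2 glia and 61.7% to 86.1% in ependymal-like cells, and by over 10 points in 13 of 19 contrasts.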
